A study of Mus musculus with 4 samples.

Results

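The genes described here encode a death receptor, caspases, members of the Bcl2 family and a mitochondrial death factor: Fas, Casp4, Casp8, Bax, Bcl2l1, Bcl2l11, Mcl1 and Aifm1. Members were all probe sets, on either of 2 array types, whose single gene symbol in the platform annotation was 1 of these 8. This gave 9 probe sets for 6 genes, out of 6137 genes with at least 1 probe set of a single symbol. Casp8 and Bax had no probe set named for them alone and are not analysed here. NIH3T3 cells, an immortalised mouse fibroblast line, carried a stable wild-type PKR transgene under a promoter that tetracycline shuts off. In 1 group tetracycline had been removed from the medium for 5 h to switch PKR on, and in the other the cells were kept in 1 µg/ml tetracycline and 5% fetal calf serum. All 4 samples come from this inducible line, so no group without the transgene was compared, and whether the line is a single clone is not given. The serum content of the withdrawn cultures is not given either, nor is the species of the transgene.

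Cells can be driven into apoptosis from the surface or from mitochondria. On the surface route, Fas and related receptors recruit the adaptor FADD, which activates caspase-8. On the mitochondrial route, BH3-only proteins such as Bim (Bcl2l11) bind and block survival proteins such as Bcl-xL (Bcl2l1) and Mcl1, which frees Bax and Bak to open the outer membrane. PKR, a kinase activated by double-stranded RNA, is known to promote apoptosis in fibroblasts through FADD and caspase-8. The comparison asks which of these transcripts differ in level once PKR is induced.

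Per condition there was 1 array of the first type and 1 of a second type, which the titles mark MB, and whether both received the same RNA is not given. Since the probe sets of the types differ, no value has a replicate, no p-value was computed and every difference describes these arrays only. Changes are log2 ratios, withdrawn over tetracycline, of the intensities without a pseudocount. A probe set was taken as measured above a main floor, the 25th percentile of its array type (130 for the first type, 80.0 for MB). A stricter control floor is the 95th percentile of 39 control probe sets for bacterial and yeast sequences (281.5 and 340.4), which have no target in mouse RNA. Whether RNA matching any of them had been added to the samples was not examined. The brightest read 1212.8 on the withdrawn MB array and 391.8 on the tetracycline MB array. The spread is a robust SD of the log2 changes among 200 probe sets of similar brightness. It mixes probe noise with real differences and is no replicate error. In bulk RNA, fewer cells expressing a transcript and less of it per cell cannot be told apart.

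The induced gene, Eif2ak2, had 1 probe set, which read 663.6 after withdrawal and 643.3 with tetracycline (log2 change 0.045, spread 0.51), and a mouse probe set need not detect the transgene. Of 14 fibroblast markers 13, among them Col1a1, Fn1, Thy1 and Vim, exceeded the control floor on both arrays of a type, and Postn did not. Over all 14, the summed intensity on the first type was 62317.9 after withdrawal and 74432.5 with tetracycline. On the MB type it was 186725 after withdrawal and 232412 with tetracycline. Of 12 macrophage and leukocyte markers 10 had a probe set, and 4 of them exceeded the control floor on both arrays. Over all 10, whatever their level, the summed intensities on the first type were 2980.6 after withdrawal and 3102.2 with tetracycline. Of these, Cd52 gave 110.8 and 877.6. On the MB type the sums were 3506.8 after withdrawal and 3298.4 with tetracycline. At the main floor 6 of these 10 genes were measured, with a median log2 change of 0.52. Of the 6, 5 were higher after withdrawal, where 49.6% of all genes were. The higher ones were Coro1a (1.20, spread 1.14), Fcgr3 (1.07, spread 0.79), Laptm5 (0.67, spread 0.42), Lyz2 (0.38, spread 0.58) and Cd14 (0.088, spread 0.31). Ptprc, a marker of all leukocytes, gave -0.96 with a spread of 0.61. Of the other markers, Adgre1 and Csf1r, which define macrophages, lay below the main floor on both MB arrays. Cd68 exceeded it after withdrawal only, at 177.5, and Cd52 with tetracycline only, at 877.6. Genes of other marker lists also exceeded the control floor on both arrays of a type. These were 3 of 9 muscle genes with a probe set, 2 of 3 adipocyte, 1 of 8 T and B lymphocyte, 1 of 5 epithelial and 0 of 6 endothelial genes. Whether cells of any of these types were present was not tested.

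All 9 member probe sets exceeded the main floor on both arrays of their type, and 4 of them, for 3 genes, exceeded the control floor on both. On the first type 2 of 7 were at least 2-fold higher after withdrawal, where 4.36% of all measured probe sets were, and none was 2-fold lower, where 4.02% were. On the MB type 1 of 2 was at least 2-fold higher, against 8.46% of all, and none was 2-fold lower, against 6.65%. The 3 probe sets past 2-fold belonged to Casp4, Bcl2l11 and Bcl2l1. Each of them lay below the control floor with tetracycline. Among measured probe sets that fell short of the control floor on 1 array or both, 14.8% were 2-fold higher and 15.5% 2-fold lower on the first type, and 19.4% and 16.6% on the MB type. None of the 4 member probe sets above the control floor on both arrays passed 2-fold. At that floor 1.88% of first-type and 1.97% of MB probe sets were 2-fold higher, and 1.29% and 0.767% were 2-fold lower. Their log2 changes ran between -0.086 and 0.37.

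**Figure D1:**
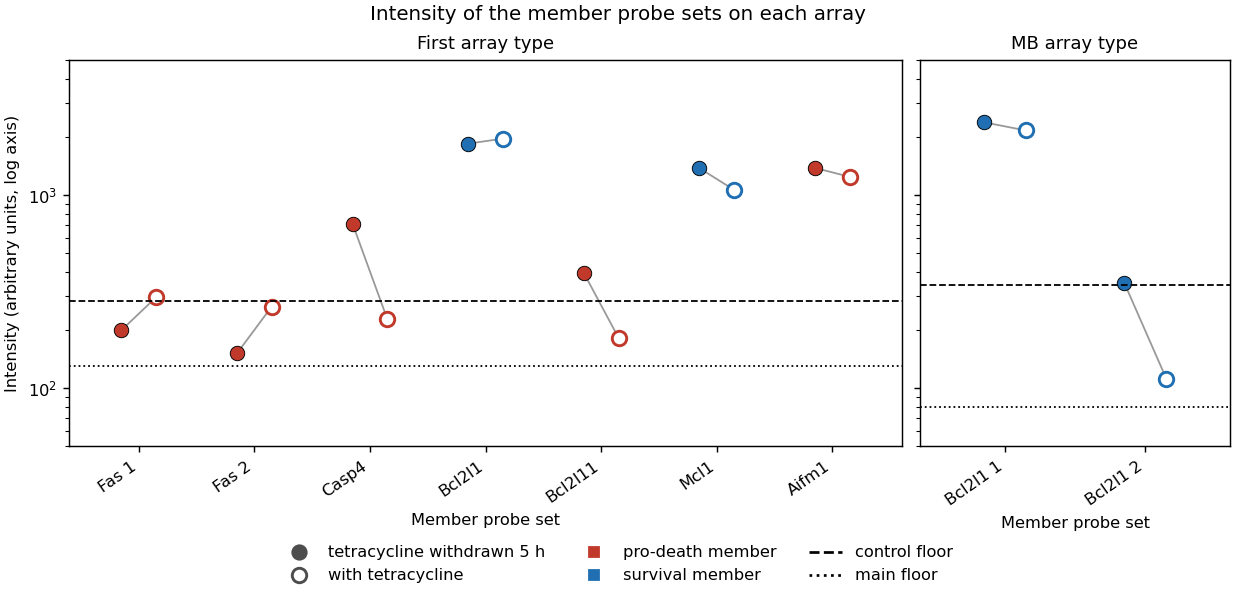
Intensity (log axis, arbitrary units) of the 9 member probe sets on each array, with the withdrawn array as a filled point left of the tetracycline array as an open point. Probe sets of a gene on 1 array type are numbered. The Casp4, Bcl2l11 and second MB Bcl2l1 probe sets lie above the dashed control floor after withdrawal only and the first Fas probe set with tetracycline only, while the other Bcl2l1 probe sets, Mcl1 and Aifm1 lie well above it in both conditions.

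The receptor Fas, which carries the death signal of Fas ligand into the cell, gave low readings. Its probe set FAS_at read 199.2 after withdrawal and 295.3 with tetracycline, a log2 change of -0.57 with a spread of 1.16. Its probe set M83649_s_at read 151.3 after withdrawal and 264.2 with tetracycline, a log2 change of -0.80 with a spread of 1.41. Both read lower after withdrawal, but by 0.49 and 0.57 of the spread. On the withdrawn array 6 of the 39 bacterial and yeast controls were at least as bright as FAS_at, and 7 as bright as M83649_s_at. With tetracycline 2 and 4 of them were. The 2 probe sets measure the same transcripts on the same arrays and are not independent.

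Casp4 encodes the mouse inflammatory caspase also called caspase-11, which senses bacterial lipopolysaccharide inside the cell and triggers lytic death through gasdermin D. Its only probe set, u59463_s_at, read 707 after withdrawal and 227.2 with tetracycline. The log2 change of 1.64 (3.11-fold) was 2.49 times the spread of 0.66, the highest such ratio among the members. No bacterial or yeast control was as bright on the withdrawn array, whereas 5 of 39 were on the tetracycline array. The Casp4 reading after withdrawal was 2.51 times the control floor, a bound that makes no allowance for noise in that reading. Macrophages also express this gene. Of their list, Fcgr3, an Fc receptor, read 505.6 after withdrawal and 240.8 with tetracycline, and the leukocyte gene Coro1a read 348.4 after withdrawal and 151.9 with tetracycline. Both were, like Casp4, above the control floor after withdrawal only, but so were markers of other lists. A Krt14 probe set (epithelial) read 539.6 after withdrawal and 243.1 with tetracycline, and Tnnt2 (muscle) 572.2 and 248.8. Others, among them Cd79b (lymphocyte) and Tie1 (endothelial), exceeded that floor with tetracycline only. Laptm5, a lysosomal protein of blood cells, read 911.6 after withdrawal and 574.3 with tetracycline, while Adgre1 and Csf1r were below the main floor. Ptprc went the other way, at 363.9 after withdrawal and 710.1 with tetracycline, above the control floor on both arrays. Cd52 read 110.8 after withdrawal, below the main floor, and 877.6 with tetracycline. Of the 6 macrophage and leukocyte markers measured at the main floor, 5 were higher, where 49.6% of all genes were. Lyz2 and Cd14 were higher by less than their spread. Cd52, below that floor after withdrawal, is not in this count. The part of such markers in the Casp4 value was not tested.

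Bcl2l11 encodes Bim, a BH3-only protein that binds the survival members of its own family. Its only probe set, aa711151_s_at, read 394 after withdrawal and 181.9 with tetracycline. The log2 change of 1.12 (2.17-fold) was 1.14 times the spread of 0.98. The reading after withdrawal was 1.40 times the control floor, again a bound without allowance for noise. No control was as bright on the withdrawn array and 6 of 39 were on the tetracycline array.

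The promoters of Casp4 and Bcl2l11, the pro-death members past 2-fold, and of Fas, which read lower, are shown to place known factor motifs beside these readings. Each run is the 250 bases before an annotated start, 5′ to 3′ on the gene's strand, from RefSeq in build GRCm38.p6. Capitals mark matches to the NF-kB consensus, the FOXO motif GTAAACA or the AP-1 motif TGANTCA, on either strand.
Casp4, chr9:5308599-5308848, plus strand: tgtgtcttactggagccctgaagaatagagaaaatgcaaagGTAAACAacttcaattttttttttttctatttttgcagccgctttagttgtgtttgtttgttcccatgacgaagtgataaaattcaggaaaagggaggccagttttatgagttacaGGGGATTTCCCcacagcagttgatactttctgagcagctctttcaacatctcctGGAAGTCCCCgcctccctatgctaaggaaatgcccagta
Bcl2l11, chr2:128125788-128126037, plus strand: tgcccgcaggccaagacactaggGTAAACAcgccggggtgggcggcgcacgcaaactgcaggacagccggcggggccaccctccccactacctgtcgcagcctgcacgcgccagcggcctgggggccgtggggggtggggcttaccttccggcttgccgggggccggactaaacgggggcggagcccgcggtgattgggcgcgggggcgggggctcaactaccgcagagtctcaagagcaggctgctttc
Fas, chr19:34290409-34290658, plus strand: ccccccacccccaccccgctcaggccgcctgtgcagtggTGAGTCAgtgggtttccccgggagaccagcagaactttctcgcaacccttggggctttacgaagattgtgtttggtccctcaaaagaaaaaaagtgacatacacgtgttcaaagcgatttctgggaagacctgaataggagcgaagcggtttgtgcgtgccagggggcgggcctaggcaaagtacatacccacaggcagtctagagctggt
The Casp4 window held GTAAACA from -209 to -203 and NF-kB matches from -93 to -83, where 3 matches on the 2 strands overlap, and from -39 to -30 on the minus strand. The Bcl2l11 window held GTAAACA from -227 to -221 and no NF-kB match. A second Casp4 start lies just downstream, and its window overlaps this one and holds the same matches. A second Bcl2l11 window, at a start further downstream, held neither. The Fas window held an AP-1 match from -211 to -205, which reads as a match on both strands. Of 32841 such windows in the table, 7.25% held an NF-kB match, 3.17% GTAAACA and 6.75% an AP-1 match. No window of the 6 genes held the cAMP response element TGACGTCA (1.55% of all windows) or the ATF4 composite element TGATGNAA (3.45%). NF-kB matches also stood in 1 of 3 Bcl2l1 windows and in the Aifm1 window, and the probe sets of these genes above the control floor gave log2 changes between -0.086 and 0.15. The third Bcl2l1 probe set, like Casp4 below that floor with tetracycline, gave 1.65. How the matches relate to these values was not tested. Base composition differed too: 41.6% of the Casp4 window, 72% of the Bcl2l11 window and 56.4% of the Fas window was G or C, against a median of 52.4%. A match describes these letters and does not show binding.

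Bcl2l1 encodes Bcl-x, whose long splice form protects mitochondria and whose short form promotes death. The annotation does not tie its 3 probe sets to splice forms. On the first type, u78031_s_at read 1845.5 after withdrawal and 1958.2 with tetracycline (log2 change -0.086, spread 0.34). On the MB type, the bright probe set read 2382.4 after withdrawal and 2159.4 with tetracycline (log2 change 0.14, spread 0.28). These 2 probe sets differed by 0.25 and 0.50 of their spread, in opposite directions.

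The third Bcl2l1 probe set, a second one on the MB type with the suffix _i_at, read 351.2 after withdrawal and 111.6 with tetracycline. In the Affymetrix naming scheme this suffix marks a set for which too few unique probes could be chosen. Its log2 change of 1.65 (3.15-fold) compares with a spread of 1.52 at this level. After withdrawal 2 of the 39 bacterial and yeast controls were at least as bright, and with tetracycline 14 were. Its bound against the control floor was 1.03-fold. It thus disagreed with both bright probe sets of the same gene.

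Mcl1 encodes a short-lived survival protein that restrains Bak and Bim. Its probe set U35623_s_at read 1375.7 after withdrawal and 1062.9 with tetracycline. The log2 change of 0.37 (1.29-fold) was about the size of the spread, 0.37. Aifm1 encodes a mitochondrial flavoprotein needed for the respiratory chain, which can move to the nucleus and promote DNA breakdown without caspases. Its probe set aa138875_s_at read 1380 after withdrawal and 1241.5 with tetracycline, a log2 change of 0.15 with a spread of 0.38.

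**Figure D2:**
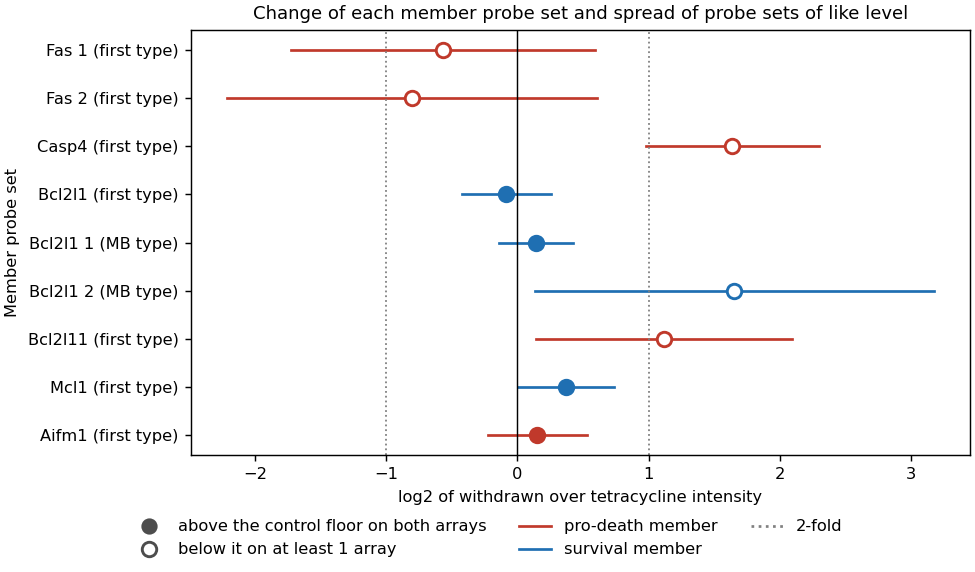
Log2 ratio (withdrawn over tetracycline) of each member probe set, with a bar of 1 spread to either side (robust SD among 200 probe sets of similar brightness) and dotted lines at 2-fold. Filled points were above the control floor on both arrays and lie between -0.086 and 0.37, and all 3 points past 2-fold are open.

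Pro-death and survival members were then set side by side, with each gene at the median of its measured probe sets. The 4 pro-death genes had a median log2 change of 0.63, spanning -0.69 for Fas to 1.64 for Casp4, and 3 of them were higher after withdrawal. The 2 survival genes had a median of 0.26, with 0.14 for Bcl2l1 and 0.37 for Mcl1. Over all 4507 measured genes the median was -0.0037, and 49.6% were higher. At the control floor the 2 sides could not be told apart. Aifm1, the only pro-death member left, stood at 0.15 with a spread of 0.38. It lay between Bcl2l1 (0.028) and Mcl1 (0.37), whose median was 0.20. The difference between the sides therefore rested on Casp4 and Bcl2l11.

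Other genes of these pathways were read from 6 lists. At the main floor 5.26% of all genes were 2-fold higher and 4.22% 2-fold lower. In the Bcl2 family list of survival genes 5 of 8 were measured, 4 of them higher, with a median of 0.28 and none past 2-fold. Taken from first-type probe sets only it was 0.018 over 5 genes, and from MB probe sets only it was 0.72 over 2 genes. The MB value takes in the dim _i_at probe set of Bcl2l1 (1.65) beside its bright one (0.14). Bcl2, the founding survival gene, read 1111 after withdrawal and 632.3 with tetracycline on l31532_at (log2 change 0.81, spread 0.39). Its second probe set, drawn from the same source sequence, read 738.1 after withdrawal and 447.3 with tetracycline (0.72, spread 0.54). Bcl2l2, encoding the survival protein Bcl-w, gave 0.54 on the MB type and 0.018 on the first type. Bcl2l10, which has been given both roles, gave -0.23 below the control floor.

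In the Bcl2 family list of pro-death genes 5 of 13 were measured, 1 of them, Bcl2l11, past 2-fold, and the list median was -0.10. The pore-forming Bak1 read 2029.2 after withdrawal and 2701.4 with tetracycline (log2 change -0.41, spread 0.30). Bok, a Bax relative, read 1414.7 after withdrawal and 1942.1 with tetracycline (-0.46, spread 0.39). The BH3-only genes Bad (-0.10) and Bid (-0.042) gave smaller values. Hrk, a further BH3-only gene, was above the main floor on the withdrawn array only, with a bound of 1.25-fold.

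Above the control floor, all 4 survival genes of the family (Bcl2, Mcl1, Bcl2l2 and Bcl2l1) were higher after withdrawal to some extent, and all 4 pro-death genes (Bok, Bak1, Bad and Bid) were lower, where 49.2% of all 3582 genes at this floor were higher. The control floor left out the pro-death gene with the highest change, Bcl2l11 (1.12), which exceeded it after withdrawal only, and the survival gene Bcl2l10 (-0.23), below it on both arrays. With these, at the main floor, 4 of 5 survival genes were higher and 4 of 5 pro-death genes lower. This split was noticed after the values were seen. None of the 8 genes passed 2-fold, and Bcl2l1 (0.028), Bad and Bid lay well within their spread. Mcl1 differed by about its spread. Bcl2l2 gave 0.018 on the first type (spread 0.51) and 0.54 on the MB type (spread 0.50). With the median ratio set to 1 Bid turned to 0.0066, and under the other 3 scalings no gene of the 8 changed direction. On the first array type alone Bcl2l1 was lower, at -0.086.

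**Figure D3:**
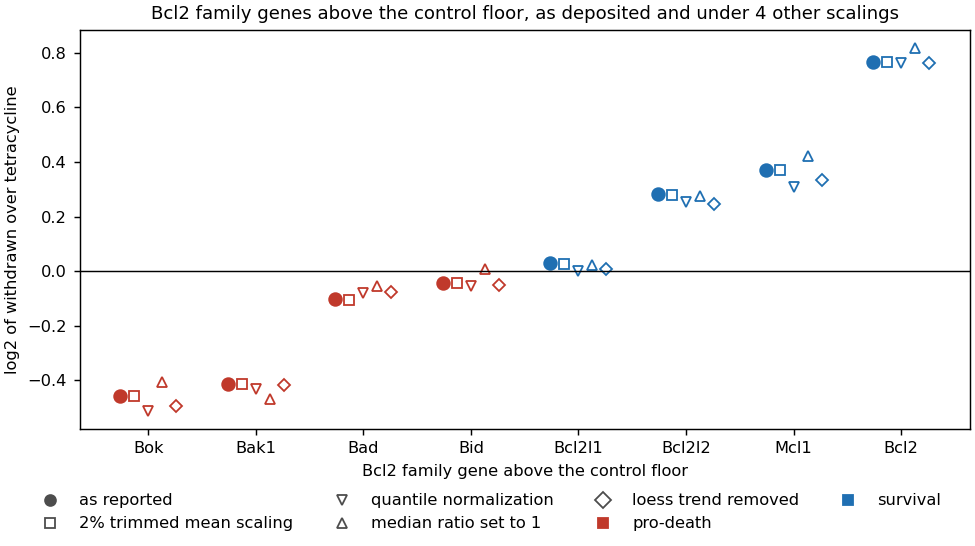
Log2 ratio (withdrawn over tetracycline) of the 8 Bcl2 family genes above the control floor, as deposited (filled) and under 4 other scalings (open). Bcl2l11 (1.12) and Bcl2l10 (-0.23) are not plotted, since they were not above that floor on both arrays. The plotted pro-death genes lie below 0 and the survival genes above it, except Bid at 0.0066 with the median ratio set to 1.

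Of the death receptor pathway 10 of 24 genes were measured, none past 2-fold, 7 of them lower, with a median of -0.095. On the MB type alone, with 2 genes, the median was 0.36. Among ligands, Fasl, Tnfsf10 (TRAIL) and the first type's Tnf probe set were below the main floor on both arrays. The MB probe set of Tnf read 162.5 after withdrawal and 85.1 with tetracycline (0.93, spread 1.93). The 2 Lta probe sets, for lymphotoxin alpha, disagreed in direction, with bounds of 2.02-fold higher and 1.86-fold lower.

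The receptors Tnfrsf1a (-0.070), Ltbr (-0.11) and Tnfrsf21 (-0.079) gave small values. Both probe sets of Tnfrsf1b, the second TNF receptor, were lower (-0.69 and -0.36, spreads 0.75 and 0.50). Fadd, the adaptor of Fas, read 512.9 after withdrawal and 668.5 with tetracycline (-0.38, spread 0.55). Cflar, the inhibitor of caspase-8 activation, gave -0.22 with a spread of 0.44.

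Daxx, a protein that binds the tail of Fas, read 955.8 after withdrawal and 695.9 with tetracycline (0.46, spread 0.39). Traf2, an adaptor of TNF receptors, gave 0.24 on its bright probe set. Its other probe set read 88.4 after withdrawal and 406.9 with tetracycline, a bound of 3.14-fold lower at the main floor. Bounds of 2-fold lower were met by 39.1% of such probe sets on the first type, and 2-fold higher by 36.3%. Traf1 was above the main floor on the withdrawn array only, with a bound of 1.89-fold.

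Of 10 caspase genes 4 were measured, with a median of 0.30, and Casp4 alone was past 2-fold. Casp2 (0.54, spread 0.50) and the initiator Casp9 (0.069, spread 0.60) were above the control floor, and the executioner Casp6 gave -0.72 with a spread of 0.91. Casp1, which processes interleukin-1 beta and lies next to Casp4 on chromosome 9 in GRCm38.p6, was not measured on both arrays of either type. Its probe set on the first type read 218.6 after withdrawal and 91.8 with tetracycline, and its probe set on the MB type 19.3 after withdrawal and 175.1 with tetracycline, so the 2 went opposite ways. The MB bound was 2.19-fold lower, and 46.6% of such MB probe sets reached 2-fold lower.

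Of the IAP inhibitors, proteins that bind caspases or TNF receptor complexes, 2 of 9 genes were measured. Birc2 read 616.4 after withdrawal and 220.3 with tetracycline (log2 change 1.48, spread 0.74), below the control floor with tetracycline. Birc3 read 637.7 after withdrawal and 327 with tetracycline (0.96, spread 0.51), above it on both arrays. Birc2 and Birc3 are adjacent paralogs on chromosome 9, and cross-hybridization between them was not tested. Xiap lay below the main floor on both of its probe sets.

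Of 14 mitochondrial death factor genes 9 were measured, none past 2-fold, with a median of 0.042. The sign of this median changed with the processing: it was -0.059 after quantile normalization, -0.015 with the median ratio set to 1, -0.043 with the loess trend removed and -0.10 at the control floor. The protease Htra2 (0.19) and the channel Vdac2 (0.20) were higher within their spread, as was Aifm1. Both Vdac1 probe sets were lower (-0.41 and -0.21, spreads 0.35 and 0.27). All 3 of the adenine nucleotide carrier Slc25a5 were lower too (-0.25, -0.23 and -0.15, spreads 0.18, 0.19 and 0.19). The 2 Cycs probe sets, for cytochrome c, disagreed in direction (0.12 and -0.45, spreads 0.31 and 0.28). So did the 2 of Slc25a4, another adenine nucleotide carrier (0.076 and -0.28, spreads 0.31 and 0.29). Cyct, the testis form of cytochrome c, gave 0.46 and 0.14, below the control floor.

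**Figure D4:**
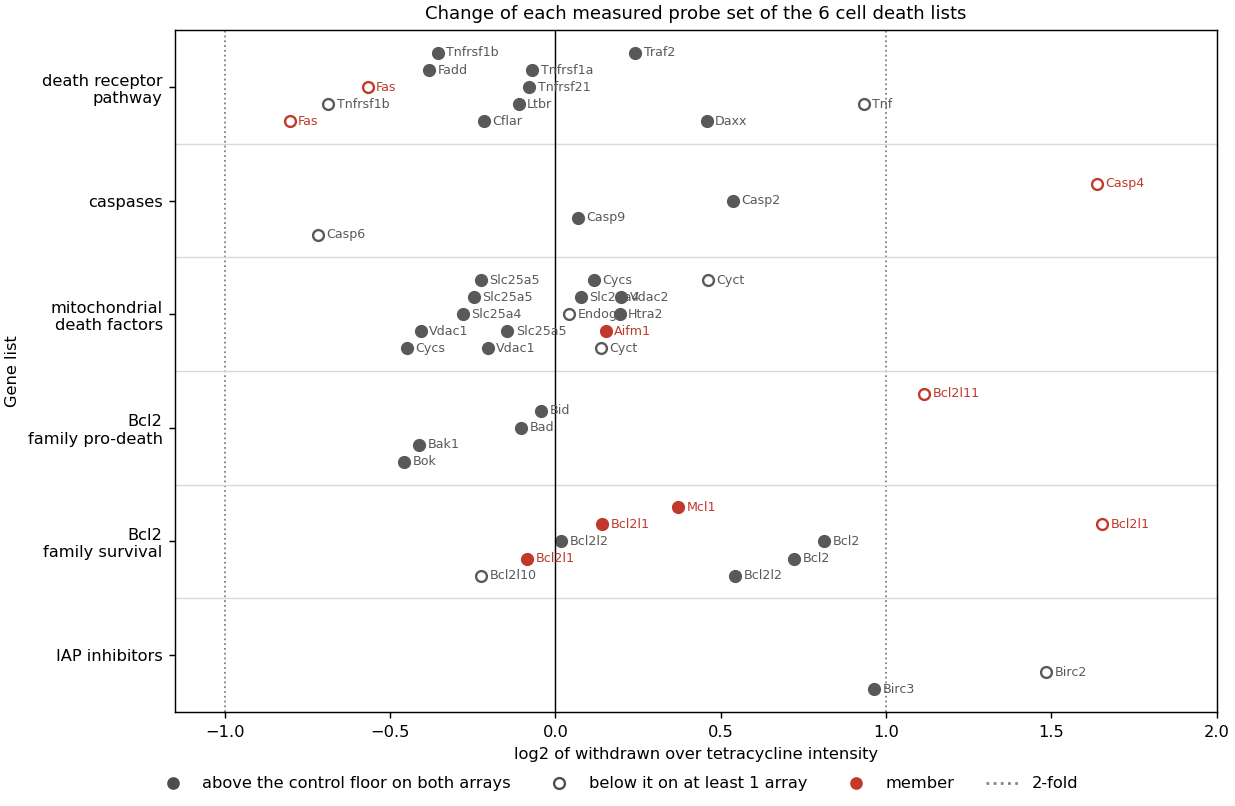
Log2 ratio (withdrawn over tetracycline) of each probe set above the main floor on both arrays, by gene list, with members in red, open points for probe sets not above the control floor on both and dotted lines at 2-fold. Casp4, Bcl2l11, Birc2 and 1 Bcl2l1 probe set pass 2-fold, all as open points, and Birc3 at 0.96 is the filled point with the highest value.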

How the data were processed

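The deposited tables, 1 per array type, give each probe set 1 linear intensity on each array and no detection call. How the authors made them from scans is not given in the sources used here. The 2% trimmed means of the 2 arrays of a type lay within 5% of each other (998.66 and 998.28, 995.159 and 994.284 for withdrawn and tetracycline), so deposited values were used unscaled. Control probe sets (61 per type) were set aside, which left 6523 and 6534. Names come from the platform annotation: 5541 and 2001 probe sets had 1 symbol, 197 and 27 several, and 785 and 4506 none. Symbols were updated through Entrez identifiers to the RefSeq table of GRCm38.p6, which held 5532 and 1993 of them. Probe sets with several symbols stayed unnamed.

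Named are all members, other listed genes past 2-fold or with a 2-fold bound, the 3 largest changes per list and direction, Eif2ak2 and marker genes. A bound is the brighter intensity over the floor. The members and lists were chosen with earlier results of these data known. Counting and spread were tested on simulated arrays. Changes were planted only in probe sets brighter than those of Casp4, Bcl2l11 and Fas and the _i_at set of Bcl2l1. The recovery of a change at the levels of these members was therefore not tested. Alternatives were 4 scalings (median ratio, trimmed mean, quantile and a loess of span 0.4), 4 floors, fold limits of 1.5 and 3, other gene values, each array type alone and a pseudocount of 100. Python 3.11.15, numpy 2.4.6, pandas 2.3.3, statsmodels 0.14.6 and matplotlib 3.10.9 were used.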

Additional observations from a re-analysis of the deposited data

How the results depend on the processing

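None of the 9 member changes reversed or moved by more than its spread under the 4 scalings or the pseudocount of 100. This is a weak check, since the spreads ran from 0.28 to 1.52. The median changes of the arrays as deposited were only -0.049 (first type) and 0.057 (MB). With the pseudocount Bcl2l11 went from 1.12 to 0.81, below 2-fold, and the _i_at set of Bcl2l1 from 1.65 to 1.09. List medians were recomputed 76 times, and 6 of these values changed sign. For the mitochondrial death factors (0.042) they were -0.059 with quantile normalization, -0.015 with the median ratio set to 1, -0.043 with loess, -0.10 at the control floor, and -0.21 from MB probe sets only, and for the death receptor pathway (-0.095) 0.36 on the MB type alone. The other medians kept their sign and ranged between 0.018 and 0.72 for the Bcl2 family survival genes, -0.41 and -0.055 for its pro-death genes, 0.069 and 0.54 for the caspases, and 0.96 and 1.27 for the IAP inhibitors. The median of the pro-death members ranged between 0.15 and 0.68. With 2 times the floor or the control floor, 0 member probe sets were 2-fold higher on either type, against 2 first-type and 1 MB probe set at the main floor. The first-type count was 1 at a 3-fold limit and 1 with the pseudocount, and at a 1.5-fold limit 1 first-type member was lower. The survival median was 0.90 on the MB type alone, where it rests on 2 Bcl2l1 probe sets. The dim _i_at set is 1 of them, and it also enters the 0.72 for the Bcl2 family survival genes. Counts over all probe sets, higher and lower, were 192 and 177 on the first type. They were 368 and 368 at 0.5 times the floor, 71 and 50 at 2 times the floor, 67 and 46 at the control floor, 662 and 868 with no floor, 545 and 471 at 1.5-fold, 46 and 29 at 3-fold, and 105 and 82 with the pseudocount. On the MB type 369 and 290 became 619 and 534, 165 and 108, 54 and 21, 1005 and 805, 769 and 561, 136 and 122, and 209 and 157 in the same order. The Bcl2 family counts at the control floor under other settings were added after the data were seen: 2 of 2 survival genes were higher on the MB type alone and 3 of 4 on the first type alone, and 1 of 4 pro-death genes was higher with the median ratio set to 1. No paired analysis was possible because each condition has 1 array per type. The number of arrays and the low signal of Casp4, Bcl2l11 and Fas limit every statement on them.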
